A study of Mus musculus with 474 samples.

Results

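The BCL2 family genes that set the threshold for mitochondrial cell death were examined in single daughters of mouse haematopoietic stem cells (HSCs). The 10 genes were chosen by name and found as rows of the deposited count tables, out of 55450 annotated genes. They are the survival genes Bcl2, Bcl2l1 and Mcl1, the effector genes Bax and Bak1, and Bcl2l11, Bbc3, Pmaip1, Bid and Bad, which encode BH3-only proteins. Of the 10 genes, 9 had a count in at least 1 cell, and Bak1 was listed at 0 throughout. The mice were wild-type C57BL/6JRj males between 12 and 19 weeks of age, bone marrow was the tissue, and no treatment is named in the labels. HSCs were filmed through their first division in culture, the daughters were picked with a micromanipulator, and each was sequenced by Smart-seq2, in which whole transcripts of one cell are copied and read in a well of a plate. The metadata give kinship and name the daughter with more lysosomes "high" and its sister with fewer "low". These 2 labels are set within a division, so a high daughter of one division may hold fewer lysosomes than a low daughter of another, and no lysosome amounts are used here.

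A total of 474 cells carried a label. Divisions with 1 high and 1 low daughter numbered 203 (406 cells), and 39 high and 29 low cells had no sequenced sister. The divisions came from 9 culture experiments with 11 to 38 divisions each, 136 divisions in sequencing run 4 and 67 in run 5. The experiment is the replicate for the lysosome comparison, and the labels do not say which mice entered which experiment. Total counts per cell ranged from 76735 to 2444858. The median total was 831924 in high and 836248 in low daughters, and high daughters had a median of 9785 detected genes, low daughters 9811. The median HSC marker, of 8, was counted in 98.8% of cells. Summed, these markers had a median of 3933 CPM (counts scaled to 1000000 per cell) in high daughters and 3935 CPM in low ones. The sets for other cell types had medians of at most 77.5 CPM in high daughters and 88.1 CPM in low ones, the highest being the megakaryocyte set. In these sets the marker counted in most cells was Pecam1 for stroma and endothelium (93.7%), Prtn3 for myeloid progenitors (74.1%), Pf4 for megakaryocytes (69.6%), Cd68 for macrophages (58.4%), Epor for erythroid cells (23.8%) and Ebf1 for lymphocytes (12.2%). Mpo and Ctsg, Rag1 and Cd3e, and C1qa and Vcam1 of the myeloid, lymphoid and macrophage sets were listed at 0 in all cells, which is not read as absence.

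BCL2 family proteins meet at the outer mitochondrial membrane. BCL2, BCL-XL (from Bcl2l1) and MCL1 bind and restrain BAX and BAK, which otherwise form pores that release cytochrome c and start the caspase cascade. BH3-only proteins respond to particular stresses and bind the survival proteins, and some also activate BAX and BAK directly. BIM (Bcl2l11) follows loss of growth factor signals, PUMA (Bbc3) and NOXA (Pmaip1) are induced by p53, BID is cut by caspases downstream of death receptors, and BAD is controlled by phosphorylation. Mouse HSCs are known to depend on MCL1 for their survival, and loss of PUMA is known to protect them from radiation.

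Transcription of BH3-only and effector genes is the step at which p53 and FOXO transcription factors act, so the promoter windows of the genes were searched for their motifs. RefSeq windows from 250 bases before to 50 after a transcription start, on build GRCm38.p6, were found for 9 of the 10 genes, 15 windows in all. The 250 bases upstream of the start are shown for 3 genes whose windows held a p53 half-site or the forkhead motif GTAAACA, with the matches in capitals and each sequence 5′ to 3′ on the gene's strand. The Bax stretch is at chr7:45466899-45467148, minus strand. The Bcl2l11 stretch is at chr2:128125788-128126037, plus strand. The Bbc3 stretch, at chr7:16310011-16310260 on the plus strand, precedes the second of its 3 starts and lies inside the annotated gene, and its forkhead match is on the opposite strand and so reads TGTTTAC.
Bax: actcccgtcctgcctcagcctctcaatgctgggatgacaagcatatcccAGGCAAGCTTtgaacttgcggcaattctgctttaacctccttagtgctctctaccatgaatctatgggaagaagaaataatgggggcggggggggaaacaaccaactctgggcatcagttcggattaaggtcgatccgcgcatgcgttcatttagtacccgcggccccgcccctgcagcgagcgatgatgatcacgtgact
Bcl2l11: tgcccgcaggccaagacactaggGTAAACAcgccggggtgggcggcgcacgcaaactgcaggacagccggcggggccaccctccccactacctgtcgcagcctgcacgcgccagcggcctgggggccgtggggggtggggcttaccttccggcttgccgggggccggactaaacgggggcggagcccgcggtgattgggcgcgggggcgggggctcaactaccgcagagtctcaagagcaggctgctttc
Bbc3: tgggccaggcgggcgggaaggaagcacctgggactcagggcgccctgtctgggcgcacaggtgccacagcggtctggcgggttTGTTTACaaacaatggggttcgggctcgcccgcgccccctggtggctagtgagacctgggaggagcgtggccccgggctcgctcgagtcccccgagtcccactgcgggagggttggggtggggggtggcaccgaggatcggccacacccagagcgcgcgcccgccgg
The Bax match is a p53 half-site, at positions -201 to -192 relative to the start. The p53 half-site was present in 8.36% of all 32851 windows, and of the 15 windows searched here the Bax window alone held it. The forkhead motif was present in 3.65% of all windows. It lay at positions -227 to -221 in Bcl2l11 and -167 to -161 in Bbc3. The E-box CACGTG, in 7.15% of all windows, matched at 2 places in the Bax window and at 1 in another Bbc3 window, in no case overlapping the matches in capitals. The STAT motif, TTC and GAA with 3 bases between them, in 8.30% of all windows, matched in none of the 15. Both strands were searched. These are matches of letters and not measured binding sites.

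Levels are described first, in all 474 cells, to show which members of the family the cells carried. To compare genes, counts were divided by the summed exon length of each gene and by the cell's total (RPKM, reads scaled to kilobases of exon and to the cell's total in CPM). The most abundant member was the effector gene Bax (ENSMUSG00000003873, GRCm38 chromosome 7, 45461697 to 45466898). Its RPKM was 41.1 in the lowest, 54.3 in the median and 70.5 in the highest experiment, a mean of 54.9 ± 9.50 (SD, n = 9 experiments). No experiment stood apart in Bax. A count of Bax was found in 99.8% of cells (473 of 474). The 1576 bases of Bax exons overlap those of Gm45808 on the same strand over 12.2% of their length, so some reads could belong to either.

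Bak1, the second effector gene, was listed at 0 in all 474 cells. Diablo and Fbxw7, which are widely expressed, and Mpo were listed at 0 in all cells as well. The 0 of Bak1 is therefore given only as the value in the tables. Exons of Ggnbp1 on the opposite strand overlap 25.5% of the exon length of Bak1, and whether the counting used strand is not stated.

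Among the survival genes Mcl1 came first per length, followed by Bcl2l1 and Bcl2. Mcl1 (ENSMUSG00000038612, chromosome 3, 95658788 to 95663176), whose protein is short-lived and continually resynthesised, was counted in 100% of cells. Its RPKM was 30.7 in the lowest, 45.7 in the median and 57.7 in the highest experiment (43.7 ± 8.88, SD, n = 9). Bcl2l1 (ENSMUSG00000007659, chromosome 2, 152780668 to 152831728) had 20.2 RPKM in the lowest, 25.3 in the median and 32.7 in the highest experiment (25.8 ± 4.29), and a count in 98.7% of cells. Bax exceeded Mcl1 in 7 of 9 experiments and Mcl1 exceeded Bcl2l1 in 9 of 9. This order depends on the length chosen. With the longest transcript in place of all exons, Bcl2l1 stood at 46.1 ± 7.67 RPKM and above Mcl1, at 43.7 ± 8.88, in 6 of 9 experiments.

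Bcl2 (ENSMUSG00000057329, chromosome 1, 106538178 to 106714274) differed most between experiments of the 3 survival genes. Its mean was 309.7 CPM in experiment 60 and 300.2 CPM in experiment 69, against 107.4 to 166.5 CPM in the other 7 experiments. Experiment 60 was in sequencing run 5 and experiment 69 in run 4. Their median totals per cell were 580670 and 743662 counts, and experiments 77 and 76, with median totals of 539043 and 726405, had Bcl2 means of 136.5 and 119.3 CPM. The part of depth in these levels was not tested. Over all experiments Bcl2 averaged 19.5 ± 8.13 RPKM, against a median experiment of 17.6. Bcl2l1 exceeded Bcl2 per length in 7 of 9 experiments. Of the 3 survival genes Bcl2 also varied most from cell to cell, with a coefficient of variation of CPM over cells of 1.02, against 0.654 for Bcl2l1 and 0.531 for Mcl1.

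**Figure D1:**
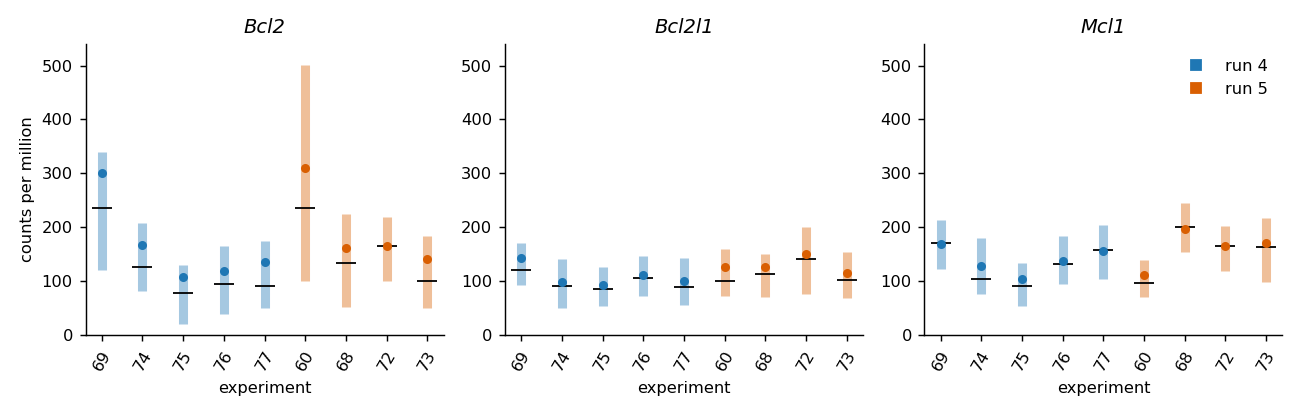
CPM of Bcl2, Bcl2l1 and Mcl1 in single HSC daughters of the 9 experiments, by sequencing run (colour). Points are means over cells, black dashes medians and bars the middle 50% of cells (quartile 1 to quartile 3). Bcl2 stands at 309.7 in experiment 60 and 300.2 in experiment 69, above 107.4 to 166.5 elsewhere.

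The survival gene with the highest RPKM in a cell was Mcl1 in 327 of 474 cells (69.0%), Bcl2l1 in 93 (19.6%) and Bcl2 in 54 (11.4%). The share led by Bcl2 ran from 3.57% to 39.6% of cells over the experiments, and that led by Mcl1 from 41.7% to 89.8%. With the longest transcript as length, Mcl1 led in 218 cells, Bcl2l1 in 200 and Bcl2 in 56. Both daughters had the same leading gene in 120 of 203 divisions (59.1%). Averaged over experiments this share was 59.7% for sisters and 54.6% for unrelated cells that shared experiment and plate. The difference of 5.15 ± 8.78 percentage points (SD, n = 9) was positive in 6 of 9 experiments and did not pass a two-sided exact sign-flip permutation test over experiments (p = 0.145, the smallest possible being 0.0039). It was 8.02 points in run 4 and 1.57 points in run 5.

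By summed exon length the BH3-only genes split into 3 levels. Bid, Bad and Bbc3 formed the upper one, with a mean of 14.7 ± 3.17, 13.1 ± 1.88 and 11.5 ± 3.87 RPKM (SD, n = 9 each). Neighbours among these 3 kept their order in 6 of 9 experiments, so with this length they are not separated beyond the spread of experiments. Bcl2, next above them, exceeded Bid in 7 of 9. Here too the order depends on the length. With the longest transcript, Bid exceeded Bbc3 in 9 of 9 experiments (21.6 ± 4.67 against 13.4 ± 4.53 RPKM). Bcl2 then exceeded Bad, the gene next below it, in 3 of 9. Bid was counted in 88.6% of cells, Bad in 92.6% and Bbc3 in 85.2%. Bid (ENSMUSG00000004446, chromosome 6, 120891930 to 120916853) shares 17.7% of its exon length with Bcl2l13 on the opposite strand, and Bad (ENSMUSG00000024959, chromosome 19, 6941861 to 6951899) shares 20.5% with Gpr137.

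Bcl2l11 (ENSMUSG00000027381, chromosome 2, 128126038 to 128162547) was lower and patchy. It had 1.42 RPKM in the lowest, 1.84 in the median and 2.49 in the highest experiment, and a count in 58.9% of cells. Where it was counted, the median was 14 reads. Bbc3 (ENSMUSG00000002083, chromosome 7, 16308393 to 16318205) exceeded it in 9 of 9 experiments.

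Pmaip1 (ENSMUSG00000024521, chromosome 18, 66458533 to 66465565) was counted in 19 of 474 cells, or 4.01% (95% Wilson interval 2.58% to 6.18%, counting error only). Its mean was 0.342 ± 0.373 RPKM, below Bcl2l11 in 9 of 9 experiments. In the cells with a count the median was 11 reads and 15.6 CPM. Its share of cells with a count was 0% in the lowest and 9.38% in the highest experiment. These shares depend on depth, and thinning each cell to 75000 counts would leave a count of Bcl2l11 in 38.1%, of Bbc3 in 59.8% and of Pmaip1 in 2.59% of cells.

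Summed over a cell, the 3 survival genes had a median of 81.3 RPKM and the 5 BH3-only genes 37.8 RPKM. The survival sum was above the BH3-only sum in 408 of 474 cells (86.1%), and in 392 cells with the longest transcript as length. The survival sum had a median of 79.6 RPKM in high and 80.3 RPKM in low daughters. The BH3-only sum had a median of 36.2 RPKM in high and 39.2 RPKM in low daughters.

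**Figure D2:**
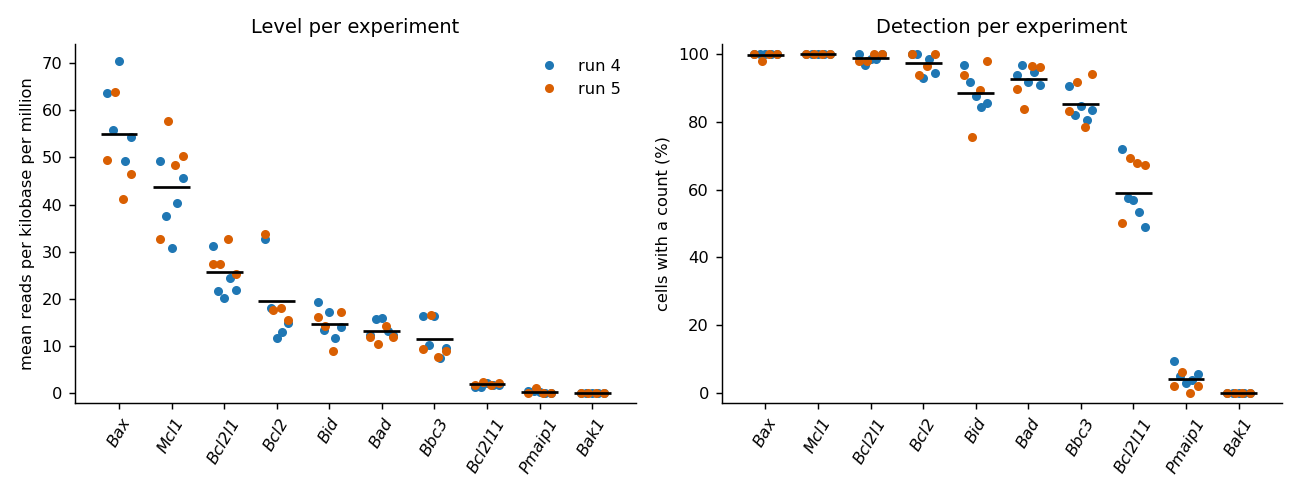
Level (left, mean RPKM over cells) and detection (right, percent of cells with a count) of the 10 genes. Each point is 1 of 9 experiments, coloured by sequencing run, and black lines are the mean over experiments (left) and the share of all 474 cells (right). Bax and Mcl1 lead, Bcl2l11 is in 58.9% of cells, Pmaip1 in 4.01%, and Bak1 is listed at 0.

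Sisters were compared next, to ask which of these genes are held in common after a division. For each gene detected in at least 20% of paired cells an intraclass correlation (ICC) of log2(CPM + 1) was calculated, with values centred on experiment and plate. An ICC of 1 would mean identical sisters, and an ICC of 0 sisters no closer than unrelated cells. Of the 8 members that could be tested, Bbc3, Bax, Bcl2l1 and Bcl2l11 were shared between sisters (F test over divisions, Benjamini-Hochberg adjusted p below 0.05 over 11699 genes), and Bcl2, Mcl1, Bid and Bad did not pass. The share of all genes that passed was 26.4%. The median ICC was 0.155 over the 8 members and 0.0858 over all genes tested. These p-values rest on divisions within a few cultures.

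Bbc3, the PUMA gene, had the highest ICC of the 8 members tested at 0.220 (95% interval 0.0841 to 0.349, adjusted p = 0.00565), above 84.9% of genes tested. By experiment its ICC was -0.32 at the lowest, 0.236 at the median and 0.620 at the highest, and it was above 0 in 7 of 9 experiments. The experiments below 0 were 69 and 76. Sisters differed in Bbc3 by a mean of 1.79 ± 0.316 on the log2(CPM + 1) scale and unrelated cells by 2.19 ± 0.258 (SD over 9 experiments), with sisters closer in 7 of 9. The ICC was 0.140 in run 4 (adjusted p = 0.152) and 0.385 in run 5 (adjusted p = 0.0104), a difference that was not tested.

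Bax had an ICC of 0.198 (0.0608 to 0.328, adjusted p = 0.0135) and was above 0 in 8 of 9 experiments, from -0.13 to 0.495. Its sisters differed by a mean of 0.758 ± 0.177 and unrelated cells by 0.882 ± 0.200 on the same scale, with sisters closer in 8 of 9 experiments. In run 5 alone the ICC was 0.0567 (adjusted p = 0.558), and without experiment 74 or 76 it was 0.167 (adjusted p = 0.0535) or 0.165 (adjusted p = 0.0689).

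Bcl2l1 had an ICC of 0.188 (0.0504 to 0.319, adjusted p = 0.0191), but it was above 0 in only 5 of 9 experiments, from -0.41 to 0.442. It was 0.264 in run 4 (adjusted p = 0.00795) and -0.02 in run 5, and without experiment 74 it was 0.118 (adjusted p = 0.153), without experiment 76 0.167 (adjusted p = 0.0653) and without experiment 77 0.162 (adjusted p = 0.0619). The ICC of Bcl2l1 was above the threshold in run 4 alone, and the difference between the runs was not tested.

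Bcl2l11, the BIM gene, had an ICC of 0.164 (0.0259 to 0.297, adjusted p = 0.0405), above 0 in 7 of 9 experiments. Both daughters had a count in 73 divisions, 1 daughter in 85 and neither in 45. As shares of divisions these are 36.0% for both, 41.9% for 1 and 22.2% for neither, against 32.0%, 49.4% and 18.6% of unrelated pairs of the same experiment and plate. Discordant sisters were thus fewer than discordant unrelated cells, which was not tested. Leaving out experiment 60, 69, 72, 74, 76 or 77 took the adjusted p to between 0.0552 and 0.115.

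Of the genes that did not pass, Bcl2 had an ICC of 0.145 (0.00654 to 0.279, adjusted p = 0.0677) and Mcl1 one of 0.107 (-0.03 to 0.243, adjusted p = 0.155). Without experiment 76 the Mcl1 ICC was 0.194 (adjusted p = 0.0336), and without experiment 68 the Bcl2 ICC was 0.168 (adjusted p = 0.0437). With a pseudocount of 10 in place of 1 Bcl2 passed (0.183, adjusted p = 0.0216) and Bcl2l11 did not (0.147, adjusted p = 0.0622). Bid stood at 0.0827 (-0.06 to 0.219, adjusted p = 0.238). Bad was lowest at 0.00235 (-0.14 to 0.142, adjusted p = 0.600), and sisters differed in it by 1.57 ± 0.363 and unrelated cells by 1.53 ± 0.202 on the log2(CPM + 1) scale.

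**Figure D3:**
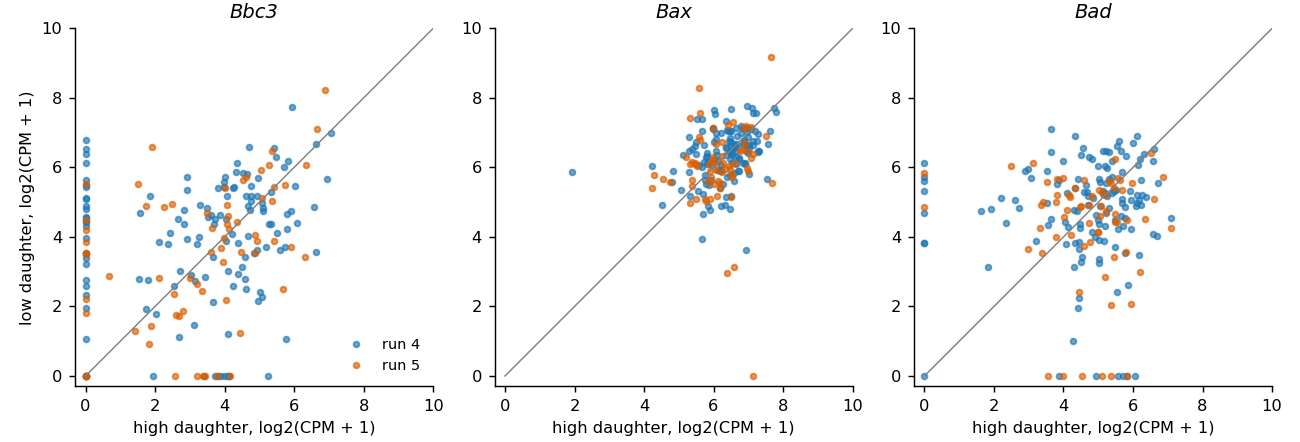
Bbc3, Bax and Bad in the high (x axis) and low (y axis) daughter of each of 203 divisions, as log2(CPM + 1), coloured by sequencing run; the line marks equal values. Points on the axes are daughters without a count, and for Bbc3 34 divisions had a count in the low daughter alone and 15 in the high daughter alone.

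Pmaip1 was too rare for the test. Both daughters had a count in 3 divisions, 1 daughter in 9 and neither in 191. Unrelated cells both had a count in 0.0976% of pairs, against 1.48% of sister pairs.

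Sisters occupied adjacent wells in 201 of 203 divisions, and neighbouring wells with unrelated cells were available for 154 pairs. Pearson's r of log2(CPM + 1), centred on experiment and plate, was 0.194 for Bbc3 over sisters and -0.05 over these neighbours. It was 0.171 for Bax over sisters and 0.0132 over neighbours, 0.161 and 0.0248 for Bcl2l1, and 0.137 and -0.13 for Bcl2l11. For the 4 genes that passed, r was higher over sisters, but these genes were called on the same sister values, which favours this order. The part of adjacent wells in the sister values was not tested. Bcl2, which did not pass, had the same order, with 0.118 over sisters and -0.17 over neighbours. The order was the other way for Mcl1, with 0.0799 over sisters and 0.189 over neighbours, for Bid, with 0.0550 over sisters and 0.126 over neighbours, and for Bad, with -0.03 over sisters and 0.0367 over neighbours. These coefficients describe cells that share plates, and no test was made.

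To give the values apart from cell cycle genes, scores of 41 G1/S and 53 G2/M genes were regressed out of each gene. Bbc3 then had an ICC of 0.184 (adjusted p = 0.0421) and was the 1 member that passed, with 11.7% of all genes. Bcl2l1 stood at 0.176 (adjusted p = 0.0532), Bax at 0.160 (adjusted p = 0.0813), Bcl2l11 at 0.0901 (adjusted p = 0.299) and Bcl2 at 0.0903 (adjusted p = 0.299). After regressing out total counts and detected genes instead, Bbc3 passed (0.215, adjusted p = 0.00822), while Bax (0.149, adjusted p = 0.0694), Bcl2l1 (0.146, adjusted p = 0.0754) and Bcl2l11 (0.161, adjusted p = 0.0506) did not. With the experiment as the unit, in a two-sided exact sign-flip permutation test on the ICC of each experiment, no gene of 11699 passed after adjustment, while 23.7% had an unadjusted p below 0.05, among them Bax and Bcl2l11 (p = 0.0234 each). Bbc3 had an unadjusted p of 0.0586 in that exact test. The smallest p that the exact test can give with 9 experiments, 0.0039, adjusted to 0.0502 here. No gene could therefore pass, and no conclusion on sharing is drawn from the count of 0.

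**Figure D4:**
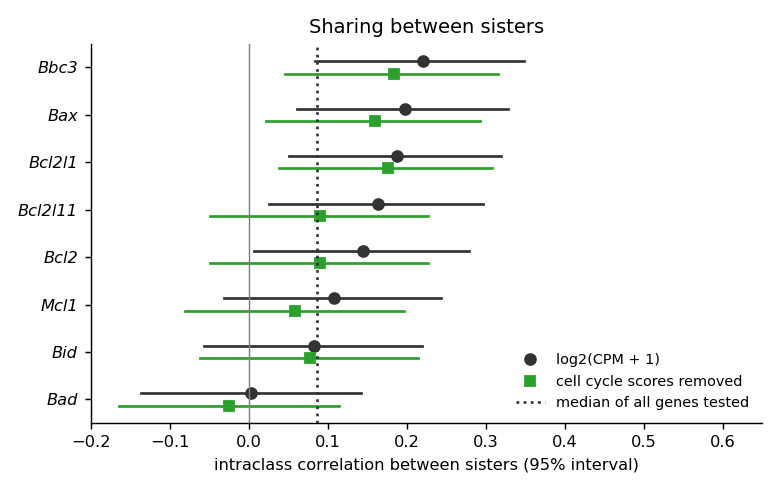
Intraclass correlation between sisters with its 95% interval for the 8 members tested, from log2(CPM + 1) (black circles) and after removal of cell cycle scores (green squares). The dotted line is the median of all genes tested, 0.0858. Bbc3 is highest at 0.220 and Bad lowest at 0.00235.

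The partners of these proteins were described by the same measure, in lists chosen by function. Of 15 other BCL2 family genes 6 were tested and 1 passed, with a median ICC of 0.0696, beside 26.4% of all genes. It was Bok, an effector relative of Bax and Bak1, at 0.275 (adjusted p = 0.000430), and 0.167 with cell cycle scores removed (adjusted p = 0.0679). The next were Bcl2l13 (0.126, adjusted p = 0.108), Bnip3l (0.120, adjusted p = 0.121) and Bcl2l12 (0.0187, adjusted p = 0.523). Bcl2a1a, Bcl2a1d, Bcl2l10 and Bcl2l2 were listed at 0.

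Of 20 genes of the apoptosome, caspases and inhibitor of apoptosis proteins 19 were tested and 4 passed, with a median ICC of 0.0670, beside 26.4% of all genes, and 1, Cycs, passed with cell cycle scores removed. Birc5, which encodes survivin and is also one of the G2/M score genes, had 0.778, and 0.126 with cell cycle scores removed (adjusted p = 0.169). Cycs, the cytochrome c gene, had 0.391, Casp6 0.215 and Htra2, a mitochondrial protease gene, 0.196. The initiator genes Apaf1 (0.139, adjusted p = 0.0793) and Casp9 (0.0670, adjusted p = 0.300), named after their values were seen, did not pass.

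Of 17 regulators and binding partners 16 were tested and 4 passed, with a median ICC of 0.0797, beside 26.4% of all genes, and 2 passed with cell cycle scores removed. Trp53, the gene of p53, had 0.381 (adjusted p = 2.66e-07), the 14-3-3 gene Ywhaz 0.216, Foxo3 0.192 (adjusted p = 0.0167) and Huwe1, which encodes a ubiquitin ligase of MCL1, 0.171. Mdm2, a p53 target and inhibitor also named after its value was seen, had 0.109 (adjusted p = 0.151).

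Within single cells the members varied largely apart from each other. Over 406 paired cells the 28 pairs of members had Pearson's r from -0.13 to 0.186, with a median of -0.03. The highest value was that of Bax with Bbc3, positive in 8 of 9 experiments. Next came Bax with Bad (0.136, positive in 8 of 9) and Bcl2 with Bcl2l1 (0.109, positive in 8 of 9). The lowest was Bax with Bcl2l11 (-0.13, positive in 2 of 9). The cells share libraries and cultures, and values this small are given as a description.

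Bcl2 had an r of 0.353 with the number of detected genes in a cell, positive in 9 of 9 experiments, against a median of 0.157 over all genes. Bcl2 and Bax had opposite signs with the G1/S score, 0.190 for Bcl2 and -0.14 for Bax, and Bbc3 had -0.18. The signs did not divide survival genes from the others. Bcl2l11 (0.154), Bid (0.147) and Bad (0.133) were positive like Bcl2, while Mcl1 had -0.07 and Bcl2l1 -0.0004. The median gene had 0.0598. Bbc3 was negative in 7 of 9 experiments and Bax in 5 of 9.

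The gene most alike to each member over the 406 cells, by Pearson's r of log2(CPM + 1), was Prkg1 for Bcl2 (0.434, with Lrmda and Zfp407 next), Msmo1 for Bcl2l1 (0.341, then Hmgcs1 and Tnfaip8) and Arf6 for Mcl1 (0.438). For Bax it was Aldoa (0.417), followed by Ccng1 (0.404) and Phlda3 (0.383). For Bbc3 it was Sqstm1 (0.317), followed by Eef2 and Ptp4a3. Bcl2l11 was nearest to Bend4 (0.255, then Dclk2 and Chek1), Bid to Ddi2 (0.266, then Btbd3 and Nif3l1) and Bad to Tmem14c (0.294, then Abhd17a and Vps29). The r of Mcl1 with Arf6 was 0.439 in both run 4 and run 5, while that of Bcl2 with Prkg1 was 0.322 in run 4 and 0.587 in run 5.

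Lysosome inheritance was compared last, to ask whether daughters with more or fewer lysosomes carry different amounts of these transcripts. No member of the family differed between high and low daughters after adjustment. Counts of all cells with the same experiment and label were added up and fitted with edgeR, with the experiment as a block. Of 15854 genes 0 passed (0% of genes), and 9 of the 10 members were among those tested. DESeq2 on the same sums called 3 genes (0.011%), none of them a member. An unadjusted p below 0.05 was found for 1 member, Bbc3, and for 658 genes in all (4.15%). The median log2 difference, high minus low, was -0.09 over the 9 members and -0.00076 over all genes.

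The smallest unadjusted p of the family was that of Bbc3, whose mean level stood lower in high daughters without passing after adjustment. Its mean was 10.7 CPM in the lowest, 18.7 CPM in the median and 36.6 CPM in the highest experiment for high daughters, against 18.3, 21.7 and 46.0 CPM for low daughters. The ranges overlapped, and high daughters were below low daughters in 7 of 9 experiments, the exceptions being experiments 69 and 73. The averages were 20.9 ± 8.39 CPM in high daughters against 26.4 ± 9.65 CPM in low ones (SD, n = 9). The log2 difference was -0.43 ± 0.14 (SE, 95% interval -0.73 to -0.14; edgeR, unadjusted p = 0.00725, adjusted p = 0.999). It was -0.44 in run 4 and -0.41 in run 5, and between -0.48 and -0.35 when 1 experiment was left out.

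The same direction was seen division by division. Bbc3 was lower in the high daughter in 110 divisions, higher in 87 and equal, with no count in either, in 6. A count was found in 80.3% of high and 89.7% of low daughters. In the 49 divisions with a count in 1 daughter, that daughter was the high one in 15 and the low one in 34, and 12 of the 34 came from experiment 76. The mean sister difference per experiment was -0.42 ± 0.50 on the log2(CPM + 1) scale (SD, n = 9), negative in 7 of 9 experiments. The exceptions were experiments 73 and 75, whereas by mean CPM they were 69 and 73. A two-sided exact sign-flip permutation test on the sister differences gave an unadjusted p of 0.0352. In the same test 4.91% of 11699 genes had a p below 0.05, so the result for Bbc3 does not stand out from the number of such genes.

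In cells without a sequenced sister the order was the other way, which was not tested. Among these, Bbc3 averaged 32.7 CPM in 39 high and 29.3 CPM in 29 low cells, with a count in 87.2% of high and 86.2% of low cells. Adding them to the sums gave a log2 difference of -0.28 (edgeR, unadjusted p = 0.0469).

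**Figure D5:**
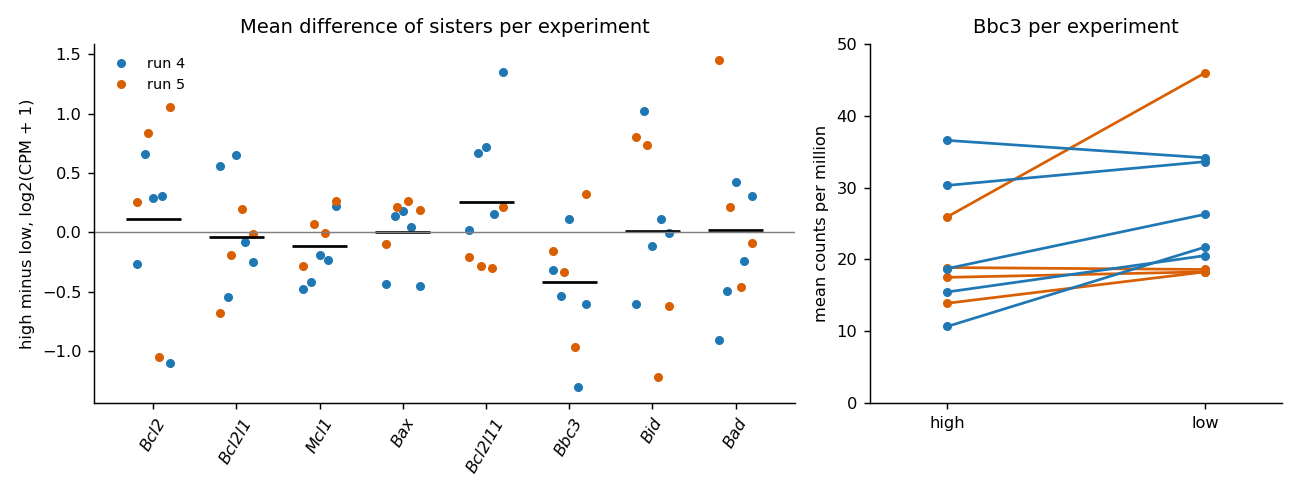
Left, mean difference of sisters in each experiment, high minus low, in log2(CPM + 1), for 8 members, with black lines at the mean of the 9 experiments and colour for the sequencing run. Right, mean Bbc3 level of high and low daughters, joined within an experiment. Bbc3 is below 0 in 7 of 9 experiments, and the other members lie on both sides of 0.

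Among the survival genes, Bcl2 averaged 182.6 ± 87.8 CPM in high daughters against 170.9 ± 79.8 CPM in low ones (SD, n = 9), with a log2 difference of 0.10 ± 0.11 (SE, 95% interval -0.15 to 0.34). Bcl2l1 averaged 117.4 ± 20.5 CPM in high daughters against 117.1 ± 22.9 CPM in low ones, with a log2 difference of 0.06 ± 0.08 (-0.13 to 0.24). Mcl1 averaged 145.2 ± 35.7 CPM in high daughters against 150.4 ± 26.5 CPM in low ones, with a log2 difference of -0.10 ± 0.08 (-0.26 to 0.07). The effector gene Bax averaged 82.3 ± 13.9 CPM in high daughters against 88.5 ± 18.3 CPM in low ones, with a log2 difference of -0.10 ± 0.08 (-0.28 to 0.07). None of the 4 passed, and the widest of these intervals is that of Bcl2.

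Bid averaged 51.8 ± 14.7 CPM in high daughters against 54.7 ± 14.8 CPM in low ones (log2 difference -0.09 ± 0.13 SE), and Bad 34.1 ± 7.76 CPM in high daughters against 34.6 ± 8.20 CPM in low ones (0.0067 ± 0.15). Both had experiments on either side of 0. Pmaip1, with counts in 3.94% of high and 3.45% of low daughters, had a log2 difference of -0.76 ± 1.35 and was not measured to any useful precision.

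In mean CPM over cells Bcl2l11 stood slightly higher in high daughters, with 15.6 ± 3.63 CPM in high daughters against 14.0 ± 4.44 CPM in low ones (SD, n = 9). On the summed counts the sign was the other way, with a log2 difference of -0.04 ± 0.19 (SE), and neither is separated from 0. The sign also differed between the runs. The log2 difference was 0.22 in run 4 and -0.36 in run 5. By mean sister difference, high daughters were above their sisters in 5 of 5 experiments of run 4, from 0.02 in experiment 69 to 1.35 in experiment 77, and in 1 of 4 experiments of run 5. The mean sister difference was 0.58 over run 4 and -0.15 over run 5. This gap between runs does not pass a correction for the members compared (exact permutation of experiments between the runs, adjusted p = 0.429).

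Of the lists of other family genes, apoptosome and caspase genes, and regulators, 8, 19 and 16 genes were tested between high and low daughters. None had an unadjusted p below 0.05 with edgeR, against 4.15% of all genes. Chosen after their values were seen, the smallest were those of Ddit3, the gene of the stress factor CHOP, at -0.48 ± 0.25 (SE, unadjusted p = 0.0704), and Cflar, the gene of the caspase-8 inhibitor c-FLIP, at -0.21 ± 0.10 (unadjusted p = 0.0555). The median log2 differences of the 3 lists were 0.0097, -0.00023 and 0.04.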

How the data were processed

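Smart-seq2 libraries of 474 HSC daughters were analysed. The deposited tables hold raw counts per gene and cell, made by the authors with featureCounts of Subread 1.5.0 and SAMtools, per the submitters' processing notes. Not given in the sources used here were the aligner, the build and the strand setting. Gene identifiers equal those of GENCODE release M21 on GRCm38, which supplied symbols and lengths. The metadata columns are the authors' deposited labels. Another 171 columns of counts match none of the listed samples and stayed out. Movie, experiment, position and colony identified sisters. Counts summed per experiment and label were tested with edgeR 4.0.16 (filterByExpr, TMM, quasi-likelihood F test), with Benjamini-Hochberg adjustment at 0.05. DESeq2 1.42.0 and limma 3.58.1 served as alternatives. CPM, computed here from the counts, used the total on genes without spike-ins. Intraclass correlations used log2(CPM + 1). Both procedures were run on simulated data. For the intraclass correlation these were normally distributed values with more sharing than any member had. They do not mimic cells without a count, so they do not check the test at the values of the members. No 2 libraries were identical. All members were named, with up to 4 genes of each other list by ICC and the 3 genes most alike to each member, of which some are not reported here. Ddit3 has 2 identifiers, and the one with more counts was used. The members and lists were chosen with earlier results of these data known. Promoter sequences are RefSeq's, build GRCm38.p6. Reads carry no molecular identifiers, so intervals on shares cover counting error only.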

Additional observations from a re-analysis of the deposited data

Results flagged for a closer look

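Of the 9 members compared between sequencing runs, Bcl2l11 had an unadjusted p below 0.05 for its lysosome difference, which does not pass a correction for the 9 comparisons. The mean sister difference, high minus low on the log2(CPM + 1) scale, averaged 0.58 over the 5 experiments of run 4 and -0.15 over the 4 experiments of run 5, a difference of 0.73. A two-sided exact permutation of the 9 experiments between the runs gave p = 0.0476 (smallest possible 0.0079), unadjusted, and the other 8 members had larger p-values in the same test. The run and the experiments in it cannot be told apart. No member had a single experiment standing far from the other 8 in its level, its sister difference or its intraclass correlation. This was checked in 26 sets of 9 experiments, where chance marks about 1 set in 20. The check cannot mark experiments that stand out together, as did the Bcl2 means of experiments 60 (309.7 CPM) and 69 (300.2 CPM), against at most 166.5 CPM elsewhere.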

How the results depend on the processing

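With lysosome inheritance, 0 genes passed under every edgeR and limma setting tried, leaving out each experiment included, and 3 passed with DESeq2, none of them a member. The edgeR fit with no replicate block also gave 0, with Bbc3 at -0.41 (unadjusted p = 0.0971). Pairing sisters, in differences tested with limma, gave 0 genes and Bbc3 at -0.46 (unadjusted p = 0.00793). The limma fit took divisions and not experiments as its unit, so its p-value does not cover the spread between experiments. Bbc3 was below 0 in each of these settings. The sign of other members turned where their difference was small: Bcl2l11 was 0.0572 with all labelled cells, 0.22 in run 4 and 0.37 from sister differences with limma. From sister differences Bcl2l1 was -0.0551, Bax 0.0127 and Bid 0.12. In run 4 Bcl2 was -0.0055 and Bad -0.15, and in run 5 Bcl2l1 was -0.0834. Leaving out 1 experiment took Bad between -0.11 and 0.0931, Bcl2l11 between -0.14 and 0.0564 and Bid between -0.18 and 0.0024. For sharing between sisters, 3084 genes passed, with 1366 after removal of cell cycle scores, 1201 in run 5 alone, 0 with experiments as the unit (exact sign-flip test), and 2646 to 3155 in leave-one-out. In the exact sign-flip test the smallest possible p, 0.0039, adjusted to 0.0502, so no gene could pass. The intraclass correlation of Bad was -0.0255 with cell cycle scores removed, -0.0189 with depth removed, -0.10 in run 5, -0.0302 as a mean over experiments and between -0.0696 and 0.0323 in leave-one-out, and that of Bcl2l1 was -0.0167 in run 5. The causes were not tested. Shares of cells with a count moved on thinning for 8 members, most for Bbc3, Bcl2l11, Bad (77.7%) and Bid (78.0%).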
